A study of Mus musculus with 18 samples.

Results

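The NR4A family of orphan nuclear receptors comprises 3 genes, *Nr4a1* (NUR77), *Nr4a2* (NURR1) and *Nr4a3* (NOR1), which were taken by name from the 37991 genes counted in each of 18 RNA-seq libraries of mouse CD4 T cells. All 3 were among the 17240 genes tested. The libraries came from the spleens of Tg4-H2u mice, whose T cells carry a transgenic T cell receptor (TCR) for a peptide of myelin basic protein, and CD4 T cells were enriched with magnetic beads rather than sorted to purity. Each of 6 groups held 3 biological replicates. Naive cells came from mice given PBS in place of the tolerizing doses, and tolerized cells from mice given repeated, escalating subcutaneous doses of the 4Y peptide. Cells were taken at rest, after a last injection of PBS (N0 and T0), or 2 h after a last injection of 4Y peptide antigen (NAg and TAg), or were treated for 2 h in culture with PMA and calcium ionophore, together called PI (NPI and TPI). Mice of both sexes, 6 to 12 weeks old, were used.

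NR4A proteins bind DNA as monomers or dimers and are called orphan receptors because no ligand is known to control them in the usual way of this class. Their activity is set mostly by how much is made, and in T cells the genes are switched on within an hour or so of TCR signaling, through calcium, calcineurin and NFAT and through protein kinase C and MAP kinases. *Nr4a1* transcription is widely used as a reporter of TCR signal strength. The family is also known for its part in thymic deletion, regulatory T cell development, anergy and exhaustion. Peptide injected into the mouse acts through the TCR, whereas PMA and ionophore act on the same pathways downstream of it, which is the question that the comparison of both stimuli addresses.

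In the genome build of the count files (NCBIM37, also called mm9), *Nr4a1* (ENSMUSG00000023034) lies on chromosome 15 from 101097277 to 101105223 on the plus strand, *Nr4a2* (ENSMUSG00000026826) on chromosome 2 from 56959241 to 56976414 on the minus strand, and *Nr4a3* (ENSMUSG00000028341) on chromosome 4 from 48058025 to 48099319 on the plus strand. None of them overlaps another annotated gene on either strand. Their exons cover 2474, 4059 and 5987 bases. The stretches just before the annotated starts are shown because all 3 genes rose together after both stimuli. They are given 5′ to 3′ on the strand of each gene, from RefSeq (GRCm38.p6), and each has 1 exact match in NCBIM37, whose coordinates are given. Capitals mark TGACG, the half-site of the cAMP response element bound by CREB and ATF proteins, on either strand (CGTCA is the same half-site read on the other strand). The stretch of *Nr4a3* is shorter because the annotation of the files places the start of that gene upstream of the RefSeq start.
Nr4a1, chr15:101097027-101097276, plus strand: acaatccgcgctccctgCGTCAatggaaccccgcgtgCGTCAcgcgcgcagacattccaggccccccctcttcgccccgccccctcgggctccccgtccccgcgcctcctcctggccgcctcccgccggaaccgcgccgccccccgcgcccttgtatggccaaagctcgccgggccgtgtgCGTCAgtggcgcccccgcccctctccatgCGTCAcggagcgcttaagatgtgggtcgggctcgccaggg
Nr4a2, chr2:56976415-56976664, minus strand: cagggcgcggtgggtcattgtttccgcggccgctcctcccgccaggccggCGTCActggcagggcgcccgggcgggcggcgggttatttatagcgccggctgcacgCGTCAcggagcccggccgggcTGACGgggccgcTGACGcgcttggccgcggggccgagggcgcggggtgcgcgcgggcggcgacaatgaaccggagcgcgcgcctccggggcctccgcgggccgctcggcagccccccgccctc
Nr4a3, chr4:48057927-48058024, plus strand: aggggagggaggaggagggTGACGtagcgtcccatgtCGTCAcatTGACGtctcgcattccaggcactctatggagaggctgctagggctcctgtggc

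Within the 250 bases before its RefSeq start each gene held 4 TGACG matches, the fourth of *Nr4a3* lying 147 bases before the start and beyond the stretch shown. Of 32851 RefSeq stretches of the same length, 17.8% held at least 1 match and 45 (0.137%) held 4 or more. The matches lay 233, 213, 69 and 40 bases before the start of *Nr4a1*, 200, 144, 123 and 111 bases before that of *Nr4a2*, and 231, 213, 205 and 147 bases before that of *Nr4a3*. The full palindrome TGACGTCA, present in 1.55% of all stretches, was found in none of them, nor were the NR4A monomer element AAAGGTCA (1.34%) or the AP-1 site TGANTCA (6.75%). The EGR site GCGNGGGCG (4.7%) matched once before *Nr4a1* and once before *Nr4a2*. The NFAT core GGAAA (55.6%) matched once before *Nr4a2* and had no match before the other two. A MEF2 site (2.92%) matched once before *Nr4a2*, and the CArG box, the site of SRF, present in 1.47%, had no match. All motifs were searched on both strands, and TGACGTCA contains TGACG. The 3 stretches are rich in G and C (74.4%, 80.0% and 63.6% over the 250 bases). The RefSeq stretches they were compared with were not matched for base composition, so its part in these shares was not tested.

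Total counts ranged from 10758571 to 24119489 per library, with the deepest libraries in TPI and NPI. The 8 T cell markers were present in every group, with summed normalized counts from 16880 to 60140. All 8 neutrophil markers were higher in T0 than N0, where 8.42% of all tested genes were. Their sums were 58.5 to 163 in N0, 1684 to 3046 in T0, 129 to 339 in NAg, 2125 to 3651 in TAg, 63.7 to 170 in NPI and 396 to 673 in TPI, and *Ngp*, *Ltf* and *Camp* were at 0 in NPI. Macrophage and monocyte marker sums were 516 to 759 in N0, 1321 to 1696 in T0, 564 to 2053 in NAg and 961 to 1408 in TAg. In T0:N0 *Lyz2* alone of these 8 was higher (normalized counts 207 and 1082), *Cd5l* was lower and 6 did not pass, with a median log2 fold change of −0.79. Over all tested genes 8.42% were higher and 12.0% lower in T0. Erythroid marker sums were 29.2 to 180 in N0 and 173 to 1880 in T0, and all 6 of these markers did not pass in T0:N0. Reads from Y-linked genes were found in 9 libraries (all of NPI and TPI, 2 of T0 and 1 of TAg), and N0 and NAg had none of these libraries. Because the tissue was measured in bulk, fewer expressing cells and less RNA per cell cannot be told apart in any value below.

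At rest all 3 genes were at their lowest levels, and tolerized cells held less *Nr4a1* and *Nr4a3* but more *Nr4a2* than naive cells. Values are given as normalized counts, which are counts divided by the TMM-scaled library size relative to the geometric mean of all libraries. *Nr4a1* measured 598, 1041 and 1493 in the N0 libraries and 495, 495 and 337 in T0. The naive libraries differed among themselves more than the tolerized ones did, but the groups did not overlap. The log2 fold change was −1.24 (SE 0.26, adjusted p = 0.00447). *Nr4a3* measured 287, 225 and 324 in N0 and 129, 185 and 161 in T0, with no overlap and a log2 fold change of −0.82 (SE 0.17, adjusted p = 0.00247). *Nr4a2* went the other way, with 34.7, 48.0 and 50.6 in N0 and 126, 125 and 125 in T0. It was higher in every tolerized library, by 1.49 on the log2 scale (SE 0.12, adjusted p = 2.37e-08), from 35 to 51 raw counts per library in N0 and 130 to 143 in T0. Every adjusted p of a gene here is a Benjamini-Hochberg value of edgeR's quasi-likelihood test over all 17240 genes.

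A gene passed the test at an adjusted p under 0.05 and was called when its fold change was also at least 2 and its average above 50 in the higher group. The fold and average limits follow the study, which required significance in both DESeq2 and edgeR where edgeR alone is used here. On this rule *Nr4a2* was called higher in T0, where 2.61% of all tested genes were, and *Nr4a1* was called lower, where 0.644% were. *Nr4a3* passed the test but missed the 2-fold limit, and 12.0% of genes passed in that direction. The opposite movement of *Nr4a2* was also seen within libraries, free of any scaling between them. The log2 ratio of *Nr4a2* to *Nr4a1* counts was −4.46 ± 0.39 (SD, n = 3) in N0 and −1.79 ± 0.32 in T0, a difference of 2.67 (exact permutation test, two-sided, p = 0.1, the smallest that 3 against 3 can give). The *Nr4a3* to *Nr4a2* ratio differed by −2.32 (exact permutation p = 0.1), and the *Nr4a3* to *Nr4a1* ratio by 0.35 with overlapping groups (exact permutation p = 0.6).

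Both resting decreases lost significance in other fits. In 1 of them an erythroid and a myeloid score, each the centered mean of log2 marker levels in a library, were covariates. The myeloid score pooled the neutrophil with the macrophage and monocyte markers. The T0:N0 difference of *Nr4a1* was then −0.87 (SE 0.59, against 0.26 in the main fit, adjusted p = 0.728). *Nr4a3* was at −0.87 (adjusted p = 0.446) and *Nr4a2* at 1.49 (adjusted p = 0.00151). Neutrophil marker sums did not overlap between N0 and T0, so score and cell state are hard to tell apart in this fit. In a fit of N0 and T0 alone *Nr4a1* was at −1.15 (adjusted p = 0.164). Without N0 replicate 3, the highest naive library, the value of *Nr4a1* was −0.89, which is under 2-fold. A term for the libraries with Y-linked reads gave −1.52, 1.51 and −0.98 for *Nr4a1*, *Nr4a2* and *Nr4a3*, all past the threshold. *Nr4a2* passed in every alternative fit and with each library left out, at 1.34 to 1.60.

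**Figure D1:**
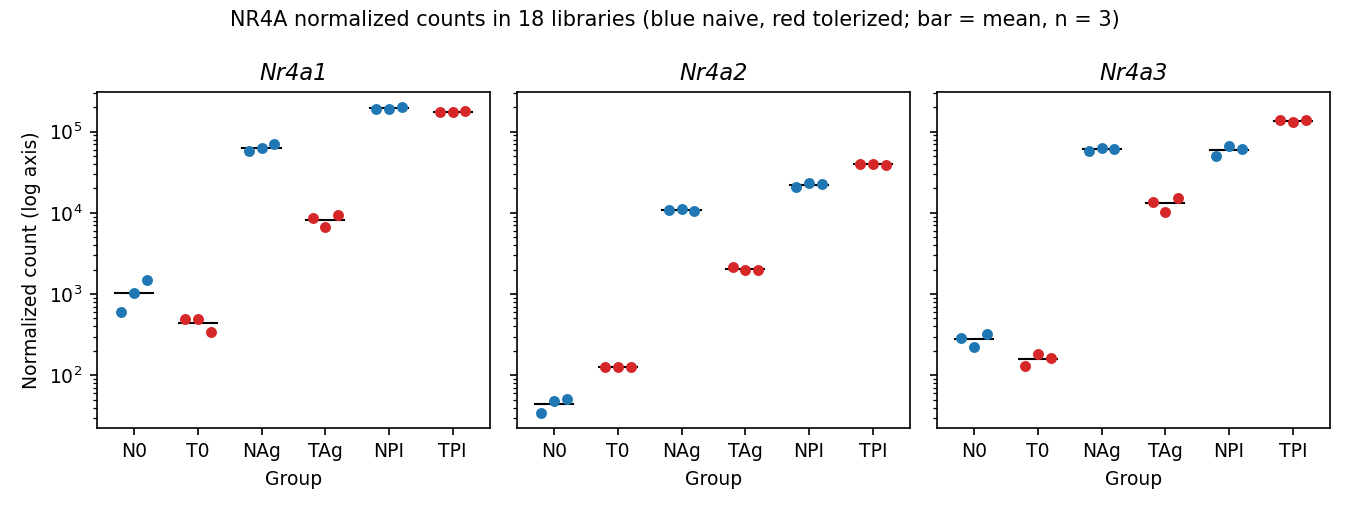
Normalized counts of *Nr4a1*, *Nr4a2* and *Nr4a3* (log axis) in the 18 libraries by group, with 1 point per library (blue naive, red tolerized) and a bar at the mean of 3. All 3 genes sat lowest at rest, TAg lay under NAg for each of them, and in TPI *Nr4a2* and *Nr4a3* lay above NPI while *Nr4a1* lay close to it.

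Peptide antigen raised all 3 genes in naive and in tolerized cells. In naive cells *Nr4a1* reached 58617, 62187 and 69904 normalized counts, *Nr4a2* 10881, 11249 and 10423, and *Nr4a3* 58672, 63402 and 60883. These were rises over N0 of 60.9-fold for *Nr4a1* (log2 5.93, SE 0.30, adjusted p = 2.65e-10), 244-fold for *Nr4a2* (log2 7.93, SE 0.11, adjusted p = 1.93e-24) and 218-fold for *Nr4a3* (log2 7.77, SE 0.19, adjusted p = 4.72e-17). All 3 were called, against 14.2% of tested genes called higher in NAg than N0, and by log2 fold change they ranked 74, 16 and 19 of 17240 genes. In tolerized cells *Nr4a1* reached 8668, 6661 and 9303, *Nr4a2* 2153, 1960 and 1992, and *Nr4a3* 13432, 10271 and 15473. The rises over T0 were 18.5-fold (log2 4.21, SE 0.28), 16.2-fold (log2 4.02, SE 0.09) and 82.5-fold (log2 6.37, SE 0.18), all 3 called where 12.1% of genes were, with an adjusted p of at most 8.76e-09.

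After peptide every tolerized library was below every naive library for each of the 3 genes. How many of all tested genes separated in this way was not counted. The TAg level of *Nr4a1* was 12.9% of that in NAg (log2 −2.95, SE 0.26, adjusted p = 1.09e-06). For *Nr4a2* it was 18.8% (log2 −2.42, SE 0.08, adjusted p = 5.41e-16), and for *Nr4a3* 21.4% (log2 −2.22, SE 0.15, adjusted p = 2.33e-09). All 3 members were called lower in TAg, compared with 2.05% of all tested genes. The median log2 fold change was −2.41 over the family and 0.01 over all genes tested. Cell type markers also moved in the same comparison. Of the 8 macrophage and monocyte markers 6 were lower in TAg and 1 was higher, with a median of −2.13 and values from −4.77 to 1.79. Of the 8 T cell markers 5 were higher and 1 lower, with a median of 0.50. Their sums were 16880 to 18050 in NAg and 20700 to 23880 in TAg. Over all tested genes 20.9% were higher and 18.5% lower in TAg. Each of the 3 NR4A genes passed the test with the erythroid and myeloid marker scores as covariates (−2.76, −2.42 and −2.25). The myeloid score pooled the neutrophil markers, whose median here was 3.46, with the macrophage and monocyte markers. It therefore cannot adjust for the macrophage and monocyte markers alone. With the term for Y-linked reads all 3 genes passed as well (−3.09, −2.41 and −2.31).

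The peptide response itself was smaller in tolerized than in naive cells for all 3 genes, and of the 3 *Nr4a2* had the largest difference. The response difference, the TAg:T0 log2 fold change minus that of NAg:N0, was −3.91 for *Nr4a2* (SE 0.14, adjusted p = 5.15e-15), −1.72 for *Nr4a1* (SE 0.35, adjusted p = 0.0034) and −1.40 for *Nr4a3* (SE 0.22, adjusted p = 0.000161). All 3 were called, against 2.23% of genes called in that direction. *Nr4a2* combined a higher start in T0 with a lower level in TAg, whereas *Nr4a1* and *Nr4a3* started lower as well. Within libraries, the *Nr4a2* to *Nr4a1* ratio was 0.55 higher and the *Nr4a3* to *Nr4a1* ratio 0.72 higher on the log2 scale in TAg than NAg, without overlap (exact permutation p = 0.1 for each), and the *Nr4a3* to *Nr4a2* ratio differed by 0.17 with overlap (exact permutation p = 0.5).

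PI gave a different order. In naive cells *Nr4a1* measured 193204, 190405 and 200192 normalized counts, and in tolerized cells 177496, 175367 and 179226. The groups did not overlap, but the log2 difference of −0.13 (SE 0.24) did not pass the test (adjusted p = 0.715). *Nr4a2* measured 20618, 23313 and 23007 in NPI and 40537, 40477 and 38465 in TPI, and was higher in tolerized cells by 0.84 (SE 0.08, adjusted p = 5.84e-09). *Nr4a3* measured 50930, 66021 and 61686 in NPI and 139003, 132768 and 139378 in TPI, and was higher by 1.20 (SE 0.14, adjusted p = 2.27e-06). Of the family *Nr4a3* alone was called, where 3.38% of genes were called higher in TPI, and *Nr4a2* passed the test under the 2-fold limit, where 18.2% passed. The *Nr4a3* to *Nr4a1* ratio was 1.34 higher on the log2 scale in TPI than NPI and the *Nr4a2* to *Nr4a1* ratio 0.97 higher (exact permutation p = 0.1 for each).

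The rises with PI over rest were 186-fold for *Nr4a1*, 501-fold for *Nr4a2* and 213-fold for *Nr4a3* in naive cells, and 400.5-fold, 318-fold and 865-fold in tolerized cells. All of these were called, against 10.1% of genes called higher in NPI and 13.3% in TPI. *Nr4a3* in tolerized cells ranked 4 of 17240 by log2 fold change. The PI cells were cultured and the resting cells were not, so culture and stimulus cannot be told apart, and all PI libraries but no N0 library carried Y-linked reads. The responses to PI and to peptide are measured from the same resting libraries. The PI response was larger in tolerized cells for *Nr4a3* (log2 difference 2.02, SE 0.22, adjusted p = 4.02e-06), which was called. For *Nr4a2* it was smaller (−0.66, SE 0.14, adjusted p = 0.00174), a direction in which 7.52% of genes passed. For *Nr4a1* the difference was 1.10 (SE 0.35, adjusted p = 0.0415), also called, in a direction in which 1.75% of genes were. It was close to the threshold and was lost in 10 of 12 fits that left out 1 library, with values of 0.77 to 1.40 over the 12.

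The gap between tolerized and naive cells differed between the stimuli for all 3 genes. It was higher with PI than with peptide by 2.82 for *Nr4a1* (SE 0.34, adjusted p = 1.88e-05), 3.25 for *Nr4a2* (SE 0.11, adjusted p = 5.09e-16) and 3.43 for *Nr4a3* (SE 0.20, adjusted p = 4.42e-10). All 3 were called, with 4.98% of tested genes. The resting groups do not enter this contrast, although their libraries share in the estimate of the spread. In a fit of the other 4 groups alone the values were 2.83, 3.27 and 3.44, all past the threshold. In naive cells PI gave 3.06-fold more *Nr4a1* than peptide (adjusted p = 4.69e-05) and 2.06-fold more *Nr4a2* (adjusted p = 8.5e-12), both called where 14.3% of genes were, whereas *Nr4a3* overlapped between NPI and NAg (log2 −0.03, SE 0.14, adjusted p = 0.842). With the marker scores as covariates the *Nr4a1* value fell from 1.61 to 1.18 on the log2 scale and did not pass (adjusted p = 0.173). The term for Y-linked reads gave 1.22 for *Nr4a1* (adjusted p = 0.00897) and 1.07 for *Nr4a2* (adjusted p = 2.87e-08). The *Nr4a2* value of 1.04 on the log2 scale was close to the 2-fold limit. It was under that limit without TMM (0.87) and in a fit of NPI and NAg alone (0.97), though it passed the test in both. In tolerized cells PI gave 21.6-fold, 19.6-fold and 10.5-fold more *Nr4a1*, *Nr4a2* and *Nr4a3* than peptide, all called where 12.4% of genes were. PI acted on cultured cells and peptide in the mouse, so culture and stimulus cannot be told apart between PI and peptide. All PI libraries but no NAg library carried Y-linked reads.

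**Figure D2:**
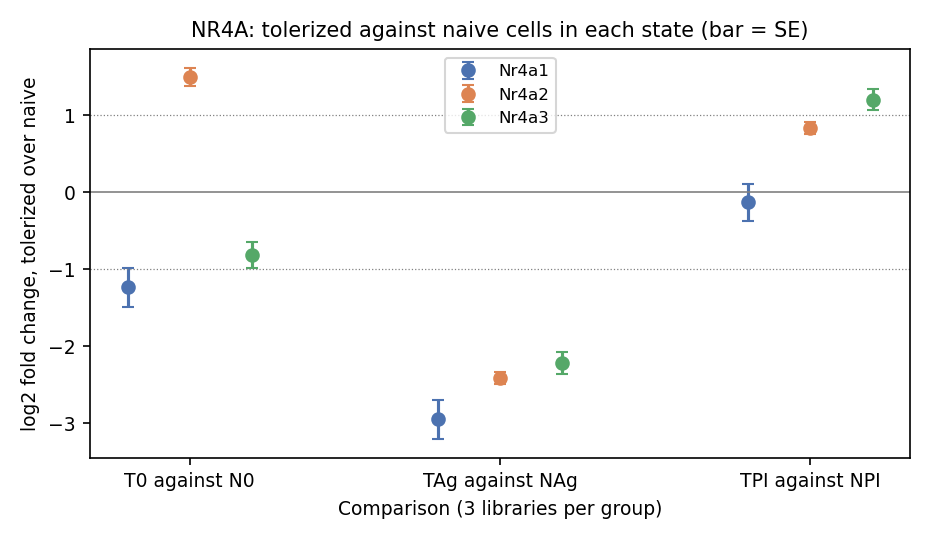
Log2 fold change of tolerized over naive cells for each NR4A gene at rest, after peptide and after PI, with bars of 1 SE from the edgeR fit and dotted lines at 2-fold. *Nr4a2* stood at 1.49 at rest against −1.24 and −0.82 for the others, all 3 lay between −2.95 and −2.22 after peptide, and they spread from −0.13 to 1.20 with PI.

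The order of the 6 groups was thus not the same for the 3 genes. For *Nr4a1* the levels ran T0, N0, TAg, NAg, TPI, NPI from low to high, and the neighbors TPI and NPI did not differ by the test. For *Nr4a2* the order was N0, T0, TAg, NAg, NPI, TPI, with every neighboring pair past the threshold. For *Nr4a3* it was T0, N0, TAg, NPI, NAg, TPI, and NPI and NAg did not differ beyond their spread.

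Levels of different genes can be compared only per length, and are given for that purpose as RPKM, counts per kilobase of exon scaled to the TMM-adjusted library size. By this measure *Nr4a1* was the leading member in all 6 groups. It averaged 30.9 ± 13.2 RPKM (SD, n = 3) in N0, 13.1 ± 2.7 in T0, 1881 ± 171 in NAg, 243 ± 40.8 in TAg, 5758 ± 149 in NPI and 5248 ± 57.2 in TPI. Ranked by mean RPKM among 17169 genes, it moved from 1477 in N0 and 3844 in T0 to 11 in NAg, 163 in TAg, 5 in NPI and 4 in TPI. *Nr4a3* averaged 3.41 ± 0.61 RPKM in N0, 1.94 ± 0.34 in T0, 746 ± 28.9 in NAg, 160 ± 32.0 in TAg, 728 ± 95.0 in NPI and 1676 ± 45.4 in TPI. *Nr4a2* was the lowest member except in T0, with 0.80 ± 0.15 RPKM in N0, 2.26 ± 0.02 in T0, 196 ± 7.46 in NAg, 36.7 ± 1.87 in TAg, 402 ± 26.6 in NPI and 718 ± 21.3 in TPI. In T0 it measured 2.28, 2.25 and 2.25 RPKM against 1.58, 2.26 and 1.97 for *Nr4a3*, so the 2 overlapped there.

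The 3 genes together took 0.0123% of all counted reads in N0, 0.00708% in T0, 0.921% in NAg, 0.180% in TAg, 1.67% in NPI and 1.97% in TPI. The make-up of the family also shifted. Of the summed NR4A RPKM, *Nr4a1* held 86.9% ± 5.04 (SD, n = 3) in N0 and 75.3% ± 4.57 in T0, 66.6% ± 2.04 in NAg and 55.3% ± 0.45 in TAg, and 83.6% ± 1.54 in NPI and 68.7% ± 0.27 in TPI. Its share was lower in every tolerized library than in every naive library of the same state. *Nr4a2* held 2.41% ± 0.51 in N0 and 13.3% ± 2.23 in T0, without overlap, and *Nr4a3* held 26.5% ± 1.45 in NAg and 36.2% ± 1.43 in TAg, and 10.6% ± 1.24 in NPI and 21.9% ± 0.35 in TPI.

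**Figure D3:**
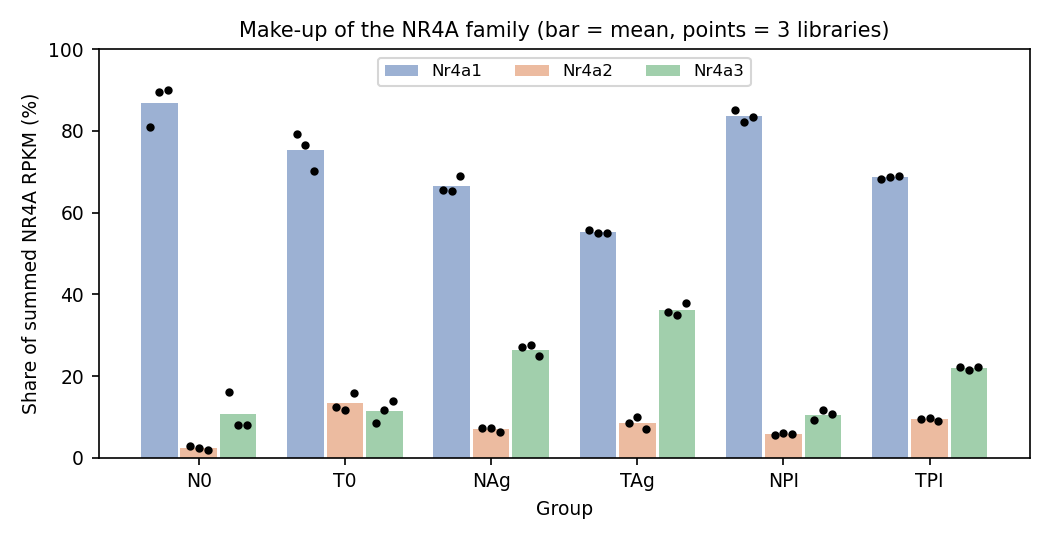
Share of each gene in the summed RPKM of the NR4A family (percent) by group, with bars at the mean and points for the 3 libraries. The *Nr4a1* share was lower in tolerized than in naive cells in each state, *Nr4a2* held 2.41% in N0 and 13.3% in T0, and *Nr4a3* was highest in TAg at 36.2%.

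NR4A genes are immediate-early genes, and a list of 20 other genes of that kind gives the background of their response. After peptide 17 of the 20 rose in naive cells and 1 fell, with a median log2 fold change of 2.27 against 0 over all genes tested, of which 32.1% rose and 33.4% fell. In tolerized cells 16 rose, with a median of 2.30, where 29.9% of all genes did. Among the 17, *Jund* had a small rise (0.28) that turned to −0.12 without TMM. The naive responses of *Nr4a2* and *Nr4a3* (7.93 and 7.77) were above all 20, whose highest was 7.46, while 2 of the 20 lay above *Nr4a1* (5.93). In tolerized cells 4 of the 20 lay above *Nr4a2* (4.02), the lowest NR4A response there, and 0 above *Nr4a3* (6.37). In TAg:NAg 2 of the 20 were higher, 6 lower and 12 did not pass, with a median of −0.30. Over all genes 20.9% were higher (3.61% called) and 18.5% lower (2.05% called). The 4 called were *Nfkbid*, a regulator of NF-kappa-B in the nucleus (−2.40, adjusted p = 1.55e-14), the AP-1 subunit *Fosl2* (−1.80, adjusted p = 3.93e-13), the activation marker *Cd69* (−1.65, adjusted p = 9.01e-08) and the AP-1 subunit *Jun* (1.18, adjusted p = 0.000237). The *Nr4a1* difference of −2.95 was lower than that of any of the 20, and 1 of them lay under the *Nr4a3* value. In the response difference 2 of the 20 were higher and 8 lower in tolerized cells, from −2.91 for *Fosl2*, with 14.6% and 7.09% over all genes. Of the 20, 5 lay under the *Nr4a3* value of −1.40 and 0 under the *Nr4a2* value of −3.91. With PI all 20 rose in both cell states, where 28.6% of all genes rose in naive and 32.0% in tolerized cells. In TPI:NPI 6 were higher and 5 lower, with 18.2% and 19.7% over all genes.

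**Figure D4:**
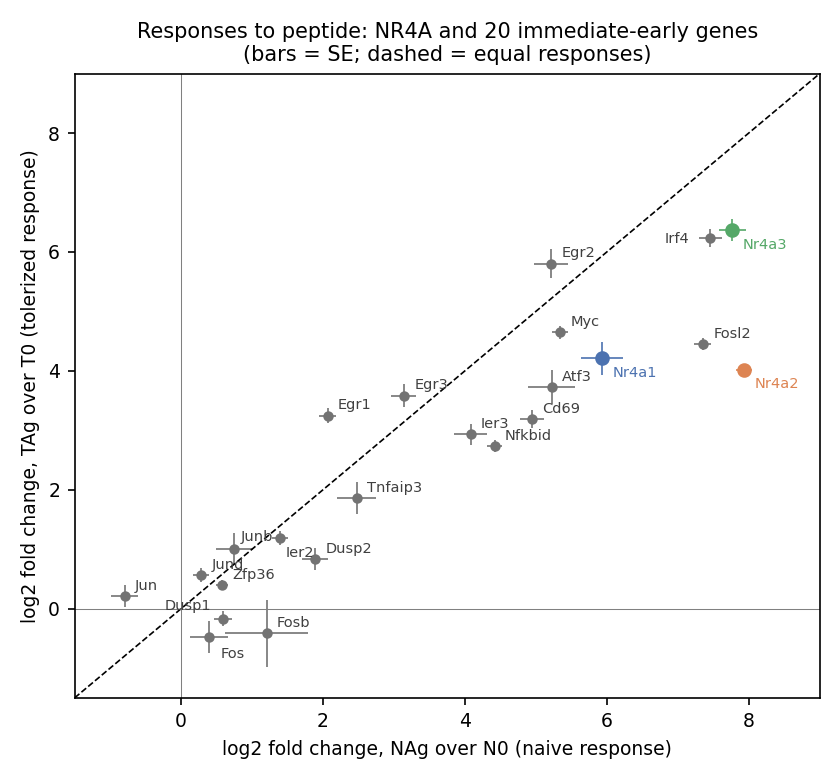
Log2 fold change after peptide in naive cells (NAg over N0, x axis) and in tolerized cells (TAg over T0, y axis) for the NR4A genes in color and 20 immediate-early genes in gray, with bars of 1 SE. Points under the dashed line responded less in tolerized cells. The NR4A genes lie under it at 5.93 and 4.21 (*Nr4a1*), 7.93 and 4.02 (*Nr4a2*) and 7.77 and 6.37 (*Nr4a3*).

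A list of 46 other nuclear receptors was set beside the family, of which 26 were tested. None of the 26 rose as far as the lowest NR4A gene after peptide or PI, in naive or tolerized cells. In TAg:NAg 7 were higher, 7 lower and 12 did not pass (20.9% of all genes were higher and 18.5% lower), with a median of −0.06 and values from −1.73 to 1.22, so that all 26 lay above the 3 NR4A genes. The called ones included *Nr2f6*, an orphan receptor of the COUP-TF group (1.22, adjusted p = 0.00014), and *Rora*, a ROR family receptor (−1.12, adjusted p = 2.9e-05). In T0:N0 5 were higher and 4 lower (8.42% and 12.0% over all genes). The vitamin D receptor *Vdr* had the highest value (1.97, adjusted p = 0.00769) at averages of 2.68 and 10.9 normalized counts, and the estrogen receptor *Esr1* the lowest (−0.70, adjusted p = 0.00184).

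**Figure D5:**
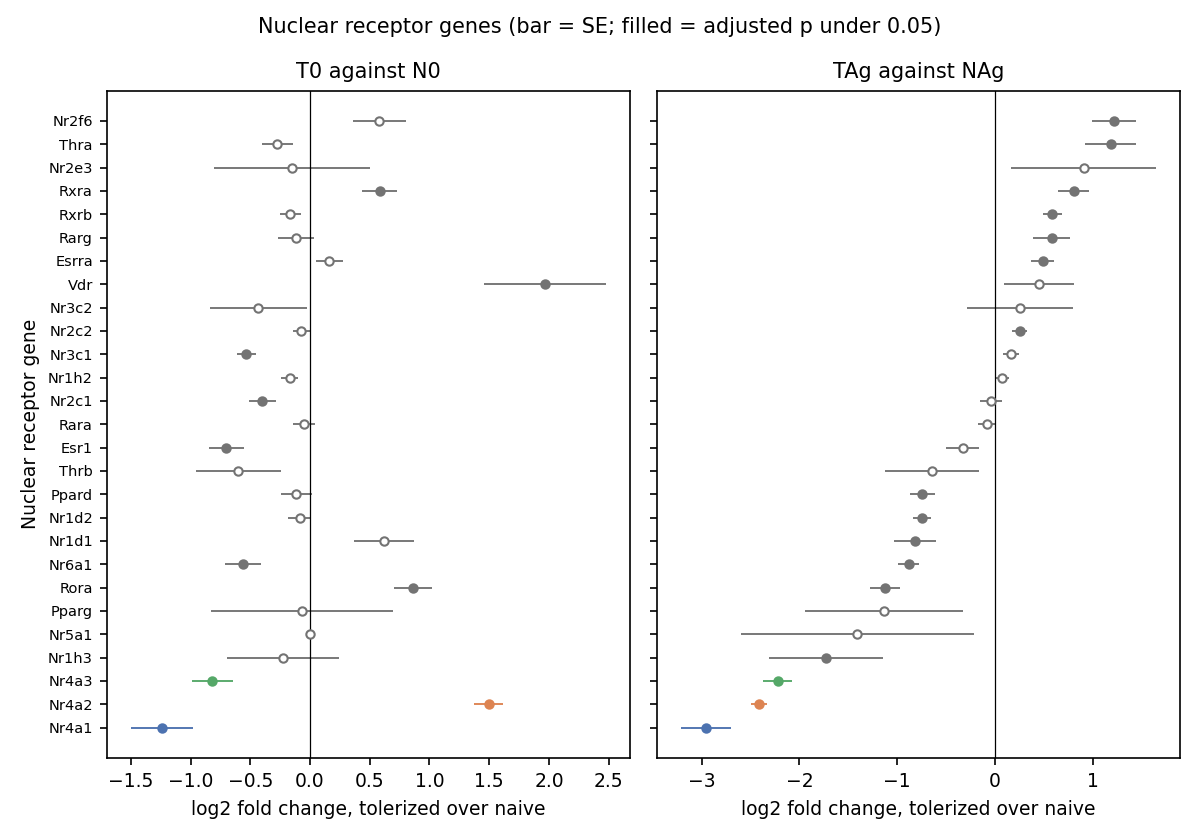
Log2 fold change of tolerized over naive cells at rest (left) and after peptide (right) for tested nuclear receptor genes in gray and the NR4A genes in color, ordered by the values after peptide, with bars of 1 SE and filled points where the adjusted p was under 0.05. After peptide the NR4A genes occupy the 3 lowest places, from −2.95 to −2.22, while the others range from −1.73 to 1.22.

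Of 18 genes known to act upstream of NR4A transcription (calcineurin, NFAT, MEF2, CREB and SRF and their cofactors), 5 were higher and 5 lower in TAg than NAg, with a median of −0.09. Over all genes 20.9% were higher and 18.5% lower, with 3.61% called higher and 2.05% called lower. Called were *Crem*, a CREB family gene with an inducible repressor form (−2.31, adjusted p = 7.22e-09), and *Hdac7*, a class IIa deacetylase that represses *Nr4a1* in thymocytes through MEF2 (1.08, adjusted p = 5.08e-06). *Crem* had normalized counts of 360 ± 93.9 (SD, n = 3) in N0, 274 ± 42.8 in T0, 3042 ± 426 in NAg, 614 ± 46.8 in TAg, 2549 ± 28.9 in NPI and 3336 ± 115 in TPI. At rest 1 was higher and 2 lower in T0 (8.42% and 12.0% over all genes), namely *Nfatc1*, an inducible NFAT gene (0.49, adjusted p = 0.000575), and at the low end *Mef2a* (−0.41, adjusted p = 0.000163). Among 12 genes of NR4A partners and corepressors, 11 were tested. In TAg:NAg 3 were higher and 6 lower (20.9% and 18.5% over all genes), and in T0:N0 2 were higher and 1 lower (8.42% and 12.0%), with none called in either. At rest *Rxra*, a nuclear receptor of the list above whose product pairs with NUR77 and NURR1, was highest (0.58, adjusted p = 0.00571) and the corepressor gene *Rcor1* lowest (−0.25, adjusted p = 0.0188).

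A list of 18 genes linked to NR4A factors in T cells, among them inhibitory receptors and genes of regulatory and anergic cells, was examined as well. In T0:N0 12 of the 18 were higher, 10 of them called, and none passed as lower, with a median of 1.19 against −0.08 over all genes, of which 8.42% were higher and 2.61% called higher. In TAg:NAg 9 were higher and 3 lower, with a median of 0.62, where 20.9% of all genes were higher and 18.5% lower. The largest called changes there were the inhibitory receptors *Lag3* (4.28, adjusted p = 5.79e-07) and *Tigit* (2.86, adjusted p = 2.54e-05), *Il2*, the T cell growth factor (−2.63, adjusted p = 2.95e-06), and *Nt5e*, which encodes the ectonucleotidase CD73 (2.55, adjusted p = 0.00182). *Lag3* also had the highest resting value (2.91, adjusted p = 0.000368), and *Cblb*, an E3 ligase that restrains TCR signaling, the lowest of those that passed (0.58, adjusted p = 0.000156). In TPI:NPI 17 of 18 were higher, with 18.2% over all genes. The list holds several genes for which the study itself described differences in these samples, so it is no independent sample of genes.

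Genes whose log2 CPM ran most like each NR4A gene over the 18 libraries differed between the members. The measure was Pearson's r among 10361 genes with a mean normalized count of at least 50. The 18 libraries share the 6 groups, and stimulated against resting cells make up most of the range, so r is a description. For *Nr4a1* the nearest were *Csrnp1*, an inducible nuclear factor (r = 0.996), *Nfkbid* (0.995) and *Hic2*, a zinc finger repressor (0.993). For *Nr4a2* they were the kinase gene *Pim1* (0.994), the homeobox gene *Tgif1* (0.993) and *Gadd45b*, a stress-inducible regulator of MAP kinases (0.988). For *Nr4a3* they were *Il2* (0.998), *Uap1*, an enzyme of amino sugar synthesis (0.997), and *Rel*, the c-Rel subunit of NF-kappa-B (0.996). Between members r was 0.969 for *Nr4a1* and *Nr4a2*, 0.970 for *Nr4a1* and *Nr4a3* and 0.976 for *Nr4a2* and *Nr4a3*, which placed the second gene of each pair at rank 91, 86 and 39 of the genes most like the first. *Il2*, nearest to *Nr4a3*, averaged 8.38 normalized counts in N0, 4.54 in T0, 4452 in NAg, 717 in TAg, 4254 in NPI and 8325 in TPI, the same order as *Nr4a3* in each of the 6 groups.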

How the data were processed

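RNA-seq was measured in 18 libraries of rRNA-depleted RNA. The authors used TopHat2 2.1.1 to place paired-end reads on mm9 and HTSeq 0.9.1 to count them over Ensembl genes. The deposited values are raw counts per gene. Strand and overlap settings of the counting are not given in the sources used here. Symbols and positions came from an annotation of the same build, for 37205 of 37991 identifiers.

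A gene was tested if its mean normalized count reached 3 in any group. All 18 libraries entered 1 fit with 6 group means in edgeR 4.0.16 (R 4.3.3), TMM scaling and robust quasi-likelihood tests, and differences between responses were contrasts of this fit. RPKM used union exon length. Count ratios within a library used counts plus 0.5. Alternatives were DESeq2 1.42.0, its size factors, no TMM, no filter, only the groups compared, the replicate number as a block, marker scores, a term for Y-linked reads, and each library left out. The scripts were tested on simulated data. The NR4A genes and all lists were chosen with earlier results of these data known. Named from each list are the called genes with the largest changes in TAg:NAg (up to 4), the highest and lowest that passed in T0:N0, all nuclear receptors called in either (some are not reported here), and the 3 genes most like each NR4A gene. Protein sequences were not used here.

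Counting error is small for stimulated cells and largest for *Nr4a2* in N0, where a library held 35 to 51 counts.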

Additional observations from a re-analysis of the deposited data

Results flagged for a closer look

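The results flagged are the 9 differences of an effect between cell states or stimuli, each past the threshold in edgeR's test of the difference itself (adjusted p under 0.05). The peptide response in tolerized minus naive cells differed by −1.72 for *Nr4a1*, −3.91 for *Nr4a2* and −1.40 for *Nr4a3* on the log2 scale. The PI response differed by 1.10 for *Nr4a1*, −0.66 for *Nr4a2* and 2.02 for *Nr4a3*. The gap between tolerized and naive cells was higher with PI than with peptide by 2.82, 3.25 and 3.43 for the 3 genes in the same order. *Nr4a2* was the member whose response was lower in tolerized cells with both stimuli, and it was also the member that was higher in T0 than N0, a group that enters both response differences. Groups of 3 libraries were not tested for single deviating libraries.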

How the results depend on the processing

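Of 630 values recomputed for 45 results, 608 kept their direction and, where a threshold applied, their side of it. A further 19 lost significance and 3 changed sign. The count ratios within libraries, which are among the 45 results, had no threshold and were judged by direction alone. When marker scores of other cell types (erythroid, myeloid) were covariates, the T0:N0 difference was −0.87 for *Nr4a1* (adjusted p = 0.728) and −0.87 for *Nr4a3* (adjusted p = 0.446), NPI:NAg was 1.18 for *Nr4a1* (adjusted p = 0.173) and 0.0129 for *Nr4a3*, and TPI:NPI of *Nr4a1* was 0.0443. The last 2 changed sign from values that had not passed. With only the groups compared, T0:N0 of *Nr4a1* was −1.15 (adjusted p = 0.164). The PI response difference of *Nr4a1* lost significance with the marker scores (0.92), without the filter (1.10), in the fit of its own 4 groups (1.01), with the replicate block (1.07, adjusted p = 0.0641) and without TMM (0.87), and ranged from 0.77 to 1.40 with single libraries left out. NPI:NAg of *Nr4a3* ranged from −0.12 to 0.0752 with single libraries left out, the latter without NPI replicate 1. Over the other alternative fits it ranged from −0.27 to 0.0129. The cause of these changes was not tested.

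On average replicates with the same number did not deviate together (mean r = −0.0171 over 45 pairs, 5 of them over 0.1). Pairs with different numbers had a mean r of 0.00852 (90 pairs, 11 over 0.1). No sign of pairing by number was seen, but groups of 3 libraries cannot exclude it. The replicate block changed no other call. Without TMM the median of all genes moved by −0.80 to 0.18 on the log2 scale between comparisons, and no NR4A gene changed direction.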
